A study of Homo sapiens with 14 samples.

Results

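The regions described here are the POLR3A regions that were listed after progesterone (P4) and matched nothing in the other lists. They were selected on the deposited lists themselves: a region of the POLR3A P4 list on chromosomes 1 to 22 or X belonged to the set when it overlapped no region, by 1 bp or more, of the POLR3A vehicle list, the PR vehicle list or the PR P4 list. The rule found 19930 of the 47904 POLR3A P4 regions, 41.6% of that list. The remaining regions of the list fell into 3 classes used for comparison: 15624 regions under P4 alone that overlapped a PR region, 2220 found in both treatments without PR, and 10130 found in both treatments with PR. A mirror set, 10114 POLR3A regions of the vehicle list that overlapped no POLR3A P4 region and no PR region, was drawn up by the same kind of rule, against a longer POLR3A list.

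The study had asked where the progesterone receptor (PR) and POLR3A sit on chromatin, by chromatin immunoprecipitation sequencing (ChIP-seq) in T47D cells, an established breast cancer line positive for the oestrogen and progesterone receptors. The cells, all of this 1 line, had received ethanol as the vehicle or P4 for 1 h; the P4 dose is not given in the sources used here. Each antibody had been used on 3 replicates per treatment, and a pooled input for each treatment brought the libraries to 14. Only 4 lists of regions came from them, 1 per group of replicates, so no value below carries a spread between replicates, and the intervals reflect counting error alone.

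RNA polymerase III transcribes short RNAs, among them the tRNAs, the 5S ribosomal RNA, the U6 small nuclear RNA and 7SK, and POLR3A is its largest, catalytic subunit. At tRNA genes the factor TFIIIC reads the internal A and B boxes and brings in TFIIIB, which recruits the polymerase. PR is a ligand-activated transcription factor that binds hormone response elements, mostly at sites distant from promoters, and Pol III has also been mapped near active promoters of RNA polymerase II.

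The promoters of protein-coding genes in which such a region peaked gave the sequences closest to the summits. The windows were RefSeq's, on GRCh38.p14. The 4 with the strongest regions are printed from 200 bases before the start site to 25 after it, to show their composition. All but the window of CARD8 were rich in GC. Each is read 5′ to 3′ on the gene's own strand, and the 21 capitals are the bases centred on the POLR3A summit.
RIPK1, chr6:3063767-3063991, plus strand: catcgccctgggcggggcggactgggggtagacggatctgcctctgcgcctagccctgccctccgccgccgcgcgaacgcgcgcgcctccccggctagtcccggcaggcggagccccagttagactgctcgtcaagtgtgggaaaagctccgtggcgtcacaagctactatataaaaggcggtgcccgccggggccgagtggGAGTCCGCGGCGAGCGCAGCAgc
CARD8, chr19:48255922-48256146, minus strand: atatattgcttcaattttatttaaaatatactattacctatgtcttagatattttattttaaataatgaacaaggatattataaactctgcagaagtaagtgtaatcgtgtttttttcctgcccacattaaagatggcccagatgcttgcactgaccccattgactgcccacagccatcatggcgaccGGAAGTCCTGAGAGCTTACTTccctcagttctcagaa
GTF2H2, chr5:71067652-71067876, minus strand: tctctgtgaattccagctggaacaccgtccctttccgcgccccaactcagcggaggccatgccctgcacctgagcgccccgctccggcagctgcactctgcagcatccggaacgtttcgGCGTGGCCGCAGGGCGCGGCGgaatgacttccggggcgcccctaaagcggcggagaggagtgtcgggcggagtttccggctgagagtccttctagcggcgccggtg
PHPT1, chr9:136849209-136849433, plus strand: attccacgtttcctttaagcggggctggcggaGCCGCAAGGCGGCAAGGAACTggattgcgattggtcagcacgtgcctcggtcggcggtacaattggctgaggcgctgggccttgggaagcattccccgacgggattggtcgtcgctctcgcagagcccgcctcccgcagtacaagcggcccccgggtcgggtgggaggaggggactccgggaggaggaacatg

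At RIPK1, which encodes a kinase of death receptor signalling, the summit lay 12 bp downstream of the start site, in a window of 300 bases with a GC content of 72.0% and 36 CpG pairs. At CARD8, a sensor of the inflammasome, the summit lay 2 bp upstream of the start site, and the window had 40.0% GC and 5 CpG pairs. At GTF2H2, a subunit of the Pol II initiation factor TFIIH, the summit lay 71 bp upstream, in a window of 65.7% GC with 32 CpG pairs; this gene has close copies in a duplicated stretch of its chromosome, so its reads are uncertain. At PHPT1, a phosphohistidine phosphatase, the summit lay 158 bp upstream, in a window of 64.3% GC with 27 CpG pairs. In these 4 regions the authors' −log10 q-value was 9.53, 8.67, 7.95 and 7.78, in the order printed.

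The lists allow the reads behind each region to be read back. In every one of these regions the deposited fold enrichment and p-value matched, to within 0.001 of −log10 p, a whole number of piled-up reads at the summit tested by a Poisson law against a local background. One read was worth 0.224 of fold enrichment where the background stood at its floor, which was 3.46 reads in the POLR3A P4 list and 2.76 reads in the POLR3A vehicle list. The floor under P4 was thus 1.25 times that of the vehicle, a measure of the depth of the 2 lists as they were called.

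Most of these regions were small. Their summits held a median of 17 reads, with quartiles of 15 and 19, over a median local background of 4.50 reads, and their median fold enrichment was 3.18. The median width was 244 bp, close to the narrowest listed, 191 bp. The median −log10 q-value was 2.79 and the 95th percentile 5.49, in a list whose lowest value was 1.30. Since the rule rested on absence from the other lists, these strengths are a description and were not tested.

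Other classes of the POLR3A P4 list stood on more reads. Regions under P4 alone with PR had a median of 18 reads and a −log10 q of 3.25, those in both treatments without PR 19 reads and 3.61, and those in both treatments with PR 23 reads and 4.90. The mirror set of the vehicle list had a median of 15 reads over 3.61, with a −log10 q of 2.93 and a width of 242 bp. The share of P4 regions that met the rule was 58.8% at a −log10 q under 2, 52.8% at 2 to 3, 41.5% at 3 to 5, 19.2% at 5 to 10 and 1.74%, or 45 of 2589, at 10 or more.

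**Figure D1:**
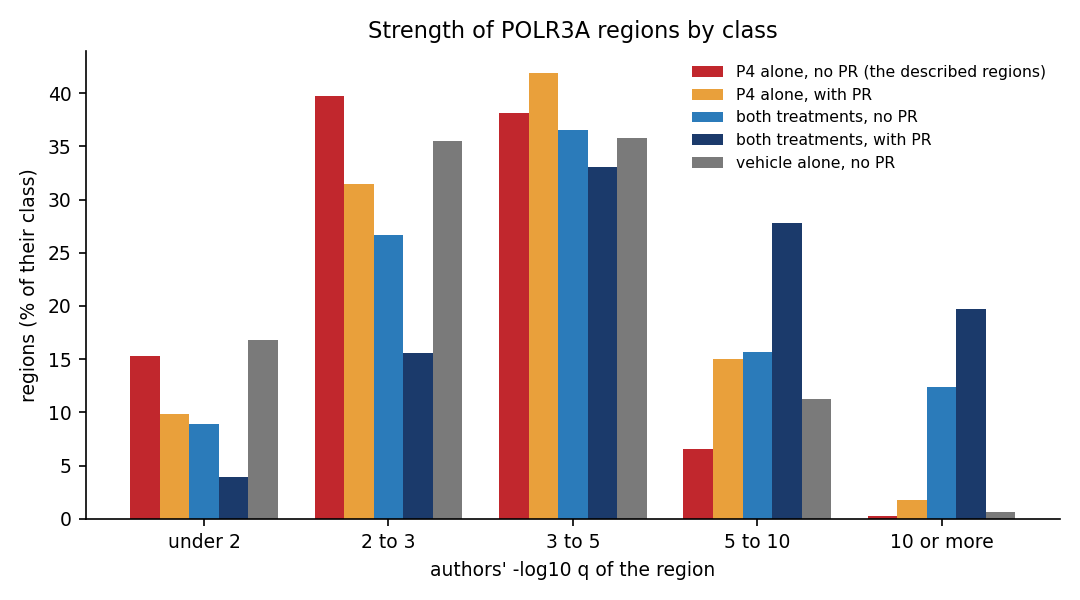
Share of each class of POLR3A regions (vertical axis, percent of the class) by the authors' −log10 q-value (horizontal axis); the colours are the 5 classes. The described regions sit mostly at 2 to 5, and those found in both treatments with PR hold the largest share at 10 or more.

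Single reads separated many of the values. The commonest pair of values, a fold enrichment of 3.36 and a −log10 q of 2.66, belonged to 841 regions with 14 reads over the background floor. One more read gave 3.59 and 3.17 in 758 regions, and one fewer gave 3.14 and 2.21 in 782 regions. With the reads and backgrounds of the P4 list multiplied by 0.798, the ratio of the floors, 1528 of the regions (7.67%) fell below the lowest −log10 p of the vehicle list, 3.49, and 18402 did not. The factor was fixed and carried no counting noise, and the part of depth in the set was not tested. The same scaling put 4.90%, 5.11% and 1.95% of the other classes below that value, in the order above.

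A region that met the rule was listed under P4 and in no other list; the reads at the same place in the vehicle libraries are not in the lists when they fell short of the threshold, and were not used here. Of all POLR3A P4 regions, 74.2% overlapped no POLR3A vehicle region. Regions next to the limit of the rule had ordinary values: the 1163 that lay within 100 bp of a region of another list had a median −log10 q of 2.86, and the 823 left out for an overlap of 50 bp or less had 2.72. Just inside the rule, 12 regions touched another list's region without sharing a base. The first were chr1:226374416-226374666 in PARP1, a DNA repair enzyme, with a −log10 q of 2.13; chr3:13110924-13111131 in IQSEC1 with 1.56; and chr3:37981981-37982230 in CTDSPL with 1.37. Just outside, with 1 bp shared, were chr2:234578711-234578912, between genes, with 2.21; chr3:196272366-196272599 in PCYT1A, an enzyme of phosphatidylcholine synthesis, with 1.70; and chr5:180085063-180085285, between genes, with 1.80.

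Although none overlapped PR, 71.0% lay within 5 kb of a PR P4 region. The nearest region of any other list was a median of 1517 bp away, and 40.8% of the regions had one within 1 kb (95% Wilson interval 40.1 to 41.5). When other lists' regions within 500 bp counted as overlapping, which removes the nearest by construction, it was 19.8%. The PR P4 list was nearest for 75.1%, and its nearest region was a median of 1916 bp away, against 10592 bp for POLR3A in vehicle and 8228 bp for PR in vehicle. The PR P4 list is also the longest, with 111515 regions against 29161 and 38933, and its part in these distances was not tested. In the mirror set the nearest PR P4 region was 2059.5 bp away at the median, and 43.8% had a region of any other list within 1 kb.

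Genes transcribed by RNA polymerase III held few of these regions. Of 429 tRNA genes, 351 (81.8%) had a POLR3A P4 region within 100 bp, and in 11 of them (2.56% of the genes, Wilson interval 1.44 to 4.53) it was one of the set, with no other P4 region at the gene. The median −log10 q at those genes was 5.60, against 272 for all P4 regions at tRNA genes, and their summits held 13 to 26 reads. The summit lay within 100 bp of the gene's midpoint in 10 of the 11.

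**Figure D2:**
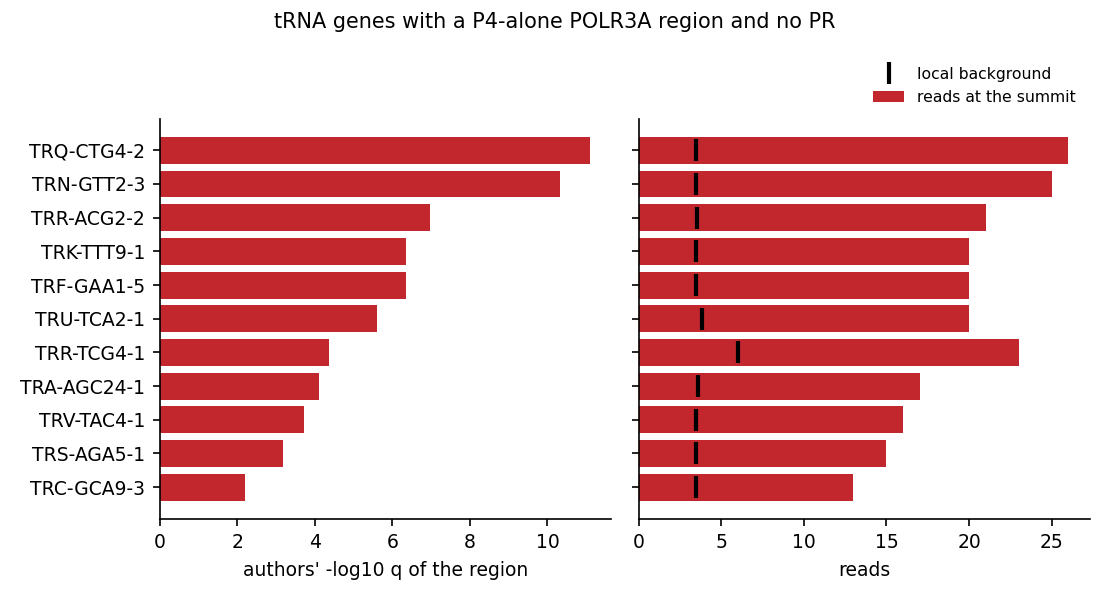
The 11 tRNA genes with a POLR3A region under P4 alone and no PR, each with the authors' −log10 q-value (left, horizontal bars) and the reads at the summit (right, bars) beside the local background (black marks). TRQ-CTG4-2 and TRN-GTT2-3 had the most reads, 26 and 25, and TRC-GCA9-3 the fewest, 13.

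TRQ-CTG4-2, a glutamine tRNA gene at chr1:143691474-143691545, had the strongest of them: 26 reads over 3.50, a fold enrichment of 6.00 and a −log10 q of 11.1, with the summit 26.5 bp from the gene's midpoint. The asparagine tRNA gene TRN-GTT2-3 at chr10:22229509-22229582 had 25 reads and 10.3. The arginine gene TRR-ACG2-2, 1257 bp from another copy, TRR-ACG2-3, had 21 reads and a −log10 q of 6.96. The lysine gene TRK-TTT9-1 and the phenylalanine gene TRF-GAA1-5 each had 20 reads and 6.34, and the selenocysteine gene TRU-TCA2-1 had 20 reads and 5.60. The lowest were TRR-TCG4-1 with 4.37, the alanine gene TRA-AGC24-1 with 4.10, the valine gene TRV-TAC4-1 with 3.72, the serine gene TRS-AGA5-1 with 3.17 and the cysteine gene TRC-GCA9-3 with 2.21. The 11 genes stood for 10 amino acids, and 5 of them lay on chromosome 6, which carries 154 of the 429 tRNA genes. tRNA genes come in near-identical copies, and how reads that match several copies were counted is not given in the sources used here.

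None of the 17 5S rRNA genes, all of which had a POLR3A P4 region, and none of the 20 other Pol III genes, of which 19 had one, held a region of the set. Of 87 tRNA pseudogenes 9 had one and in 3 it was of the set, the strongest being TRK-TTT13-1 with 22 reads and a −log10 q of 7.37. Of 504 5S pseudogenes 15 had one and 7 held one of the set, led by RNA5SP67 with 22 reads and 6.45. Among the 7, RNA5SP387 is annotated over a long span, chr14:75604173-75612677, with the summit 3081 bp from its midpoint. At RNA5SP275 the summit lay 230.5 bp from the midpoint.

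The regions lay mostly inside or between genes, away from their starts. Of the summits 53.5% were inside a protein-coding gene, on a genome of which such genes cover 41.6%, 11.2% were inside another gene only and 35.3% were outside all genes. Within 1 kb of either end of a protein-coding gene lay 9.25% of the summits. With start sites in place of ends, 1262 of 18965 summits (6.65%) were within 1 kb and 70.1% were over 10 kb away. Over 10 kb away were also 66.4% of the whole POLR3A P4 list and 66.3% of the mirror set. Chromosome 8 was not used in this measure.

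Summits near start sites were rarer than in every other class. The share within 1 kb was 13.8% for regions under P4 alone with PR, 23.8% and 23.1% for those in both treatments without and with PR, and 12.6% in the mirror set. The differences were −7.18 percentage points (95% Newcombe interval −7.85 to −6.53), −17.1 (−19.0 to −15.3), −16.4 (−17.4 to −15.5) and −5.92 (−6.68 to −5.18). Within 100 bp of a start site the share was 0.743%, against 1.44%, 6.75%, 5.34% and 2.48%. The measure moved with the rule: when regions of the other lists within 500 bp also counted as overlapping, the share fell to 4.29%. With the other lists held to a −log10 q of at least 3 it was 8.08%.

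**Figure D3:**
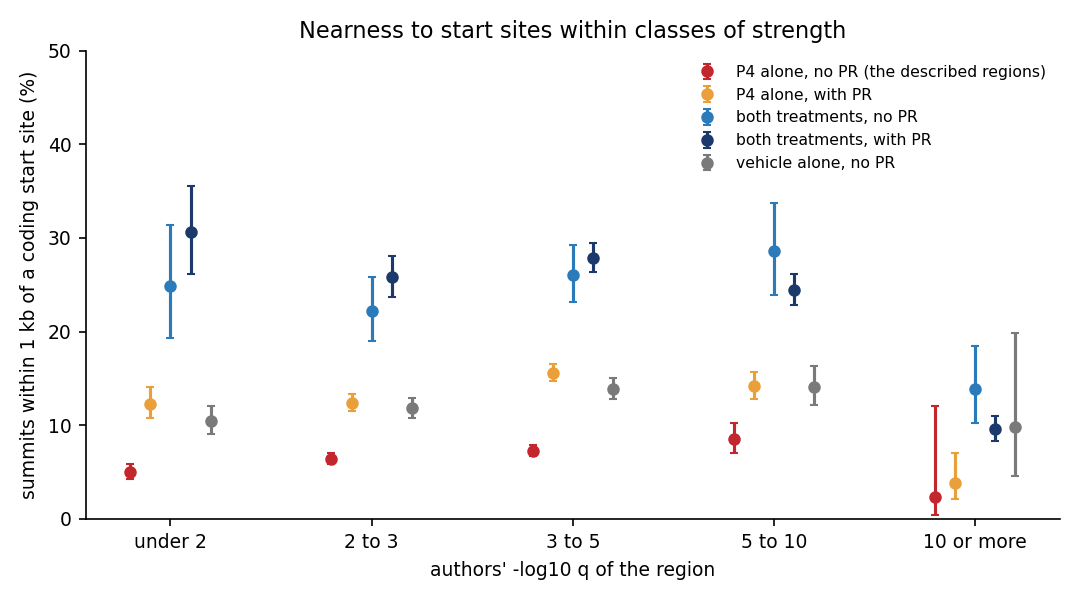
Share of summits within 1 kb of a protein-coding start site (vertical axis, percent; bars are 95% Wilson intervals) by the authors' −log10 q-value (horizontal axis), for 5 classes of POLR3A regions. Up to a −log10 q of 10 the described regions, at 4.99% to 8.51%, sit below every other class; at 10 or more only 43 of them were counted and the intervals overlap.

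The lower share held within classes of −log10 q up to 10 and of reads. The mirror set comes from a list with a floor of 2.76 reads against 3.46, so equal values there are not equal strength. At a −log10 q of 3 to 5 the share was 7.28% of the regions, against 15.6%, 26.1%, 27.9% and 13.9% of the other classes in the same order. Among summits with 15 to 17 reads it was 7.10%, against 15.0%, 26.3%, 32.5% and 12.0%. At a −log10 q of 10 or more, 1 of 43 regions (2.33%, Wilson interval 0.412 to 12.1) was near a start site, and at that strength the intervals overlapped.

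Around the start site the regions formed only a low peak. The 200 bp downstream of it held 0.981% of the summits, against 0.496% in the 200 bp upstream and 0.712% in the 200 bp before those. For summits within 1 kb, the median distance to the start site was 492 bp (interval 468 to 529), close to the 474 bp of regions under P4 alone with PR, and farther than the 196 bp, 269 bp and 306 bp of the other classes. Of these summits 53.1% were downstream of the start, against 49.6%, 55.0%, 50.8% and, in the mirror set, 60.3%.

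**Figure D4:**
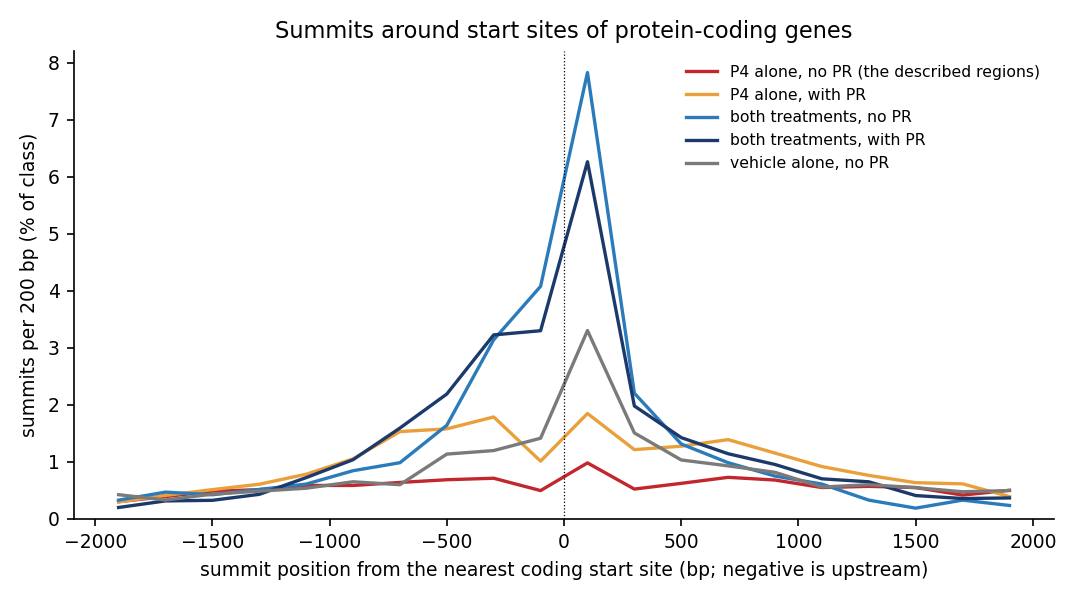
Summits per 200 bp (vertical axis, percent of the class) by position from the nearest protein-coding start site (horizontal axis, bp, negative is upstream), for 5 classes of POLR3A regions. The described regions stay below 1% in every bin, and the regions found in both treatments rise highest just downstream of the start.

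Near gene ends the strongest region was at UBALD2, with 27 reads and a −log10 q of 10.4, 644 bp downstream of the start. After RIPK1 came chr11:62771738-62772063, where TMEM223 and TAF6L overlap, with 8.82; IMMP2L, a mitochondrial inner membrane peptidase, with 8.67 and the summit 630 bp upstream; and CARD8. EFCAB12 had 8.52 and TOR1B, an ATPase of the torsin family, 8.12. At ACTB, the gene of beta-actin, the region at chr7:5527173-5527616 had 8.09, and the last of the 10 were GTF2H2 and, 474 bp from one end of its gene, the vitamin D receptor VDR with 7.85. All 10 had 23 to 27 reads.

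A summit lay in 191 promoter windows of 184 genes. These windows had a median GC content of 63.0% (interval 61.0 to 64.7), against 62.3% for all 22132 coding windows, 59.3% for those with a summit under P4 alone with PR and 67.7% in the mirror set. Windows with a summit in both treatments had 64.7% without PR and 62.3% with PR. The set's windows held a median of 25 CpG pairs per 300 bases (interval 22 to 27), against 21 in all windows. The other classes had 20 under P4 alone with PR, 27 and 24 in both treatments without and with PR, and 29 in the mirror set. The core of the B box, searched as GTTCNANNC on both strands, was in 5.76% of the set's windows and in 6.94% of all windows. It was in 12.5% (9.35 to 16.6) of windows with a summit under P4 alone with PR, 10.9% and 6.35% of those in both treatments without and with PR, and 4.59% in the mirror set. The long B box was in none of the 191 and in 0.0904% of all. The A box was in 1.05% (2 windows, Wilson interval 0.288 to 3.74) and in 0.330% of all, which the interval covers. The hormone response element was in none, which allows up to 1.97% by the Wilson interval, and in 0.294% of all windows. The AP-1 motif TGANTCA was in 6.81% (13 windows) against 6.15%. The forkhead motif TGTTTAC was in 1.57% (3 windows) against 2.85%, and the nuclear receptor motif AGGTCA in 8.90% (17 windows) against 11.9%. These are matches of letters only.

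Gene lists were described by how many of their genes held a region within the gene or 1 kb beside it, which was the case for 31.7% of all 19821 protein-coding genes. Within 1 kb of a start site the figure was 8.25% of the 15812 genes with one in the table. The first share grew with gene length, from 15.9% of genes under 10 kb to 48.4% of those over 300 kb.

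Among genes for the polymerase's own subunits and factors, 14 of 36 held a region (38.9%), and 6 of 28 held one within 1 kb of a start site (21.4%); for any POLR3A P4 region the share at starts was 57.1%, against 31.3% of all coding genes. The strongest was in BRF1, a subunit of TFIIIB, at chr14:105231626-105231922 with 27 reads and a −log10 q of 7.95, 16108 bp from the start, one of 9 in that gene. Near the starts, POLR3B, the second largest subunit, had 21 reads and 7.09 at 847 bp downstream; POLR3GL had 23 reads and 4.81 at 196 bp upstream; and GTF3C5, of TFIIIC, had 18 reads and 3.25 at 907 bp upstream. SNAPC3, of the complex that serves small nuclear RNA genes, and POLR2F, a subunit shared by the nuclear polymerases, each had 15 reads and 3.17. POLR3A itself had a region 377 bp upstream of its start, at chr10:78029722-78029969, with 19 reads and 2.91, and a stronger one inside the gene with 22 reads and 4.76.

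The lists tied to hormone response and cell identity held a region in 40.9% to 57.1% of their genes, against 31.7% of all coding genes, a description with no test. Ribosomal protein genes, at 42.5%, and the polymerase's own genes, at 38.9%, were above 31.7% too. The lists differ in gene length, and its part was not tested. Ribosomal and immediate early genes had median lengths of 5.09 kb and 5.84 kb, and 15.9% of coding genes under 10 kb held a region. PR targets, luminal factors and the polymerase's own genes had medians of 27.9, 22.8 and 22.4 kb, and 29.9% of genes of 10 to 30 kb held one. Any POLR3A P4 region was also commoner, in 68.2% of PR targets, 78.6% of luminal factors and 85.7% of immediate early genes, against 49.1%. Within 1 kb of a start site the set's shares were 5.88%, 10% and 9.09%, against 8.25% of all coding genes. Of 22 genes known as PR targets 9 held a region (40.9%, Wilson interval 23.3 to 61.3), led by CCND1, the cyclin of early cell cycle entry, with a −log10 q of 4.90, GREB1 with 4.86, where 7 of its 22 POLR3A P4 regions met the rule, ZBTB16 with 4.60 and FKBP5, a co-chaperone of steroid receptors, with 4.31. Among the 17 with a start site in the table, only WNT4, a paracrine signal, had one within 1 kb of a start, 638 bp downstream with 15 reads and 3.17. Of 14 luminal transcription factors 8 held one (57.1%, 32.6 to 78.6). At GRHL2 13 of 48 POLR3A P4 regions met the rule and at TRPS1 7 of 11, against 41.6% of the whole P4 list. At SPDEF 1 of 12 did. GATA3 and ESR1 held 1 each, out of 10 and 2, with a −log10 q of 2.46 and 1.80. XBP1, a factor of the unfolded protein response, had one 74 bp downstream of its start with 15 reads. Of 14 immediate early genes 6 did (42.9%, 21.4 to 67.4): JUN, a subunit of AP-1, had one 37 bp downstream of its start with 20 reads and 6.34, and NR4A1, an orphan nuclear receptor, had 5.32.

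Genes of the translation machinery and of histones held such regions as follows. Of 20 aminoacyl-tRNA synthetase genes 5 held a region (25%), against 31.7% of all coding genes. None of the 16 with a start site in the table held it there, though 10 of them (62.5%) had a POLR3A P4 region of any class there. MARS1, for methionine, had the strongest of the set with 26 reads and 9.20. Of 80 ribosomal protein genes 34 did, and 10 of 63 within 1 kb of a start (15.9%), such as RPS27 with 21 reads and 5.46 and RPS13 with 18 reads and 4.95. Of 69 replication-dependent histone genes, which are short and clustered, 11 did (15.9%, the same as for all coding genes under 10 kb), and 6 of 64 at a start. Some regions counted for neighbouring genes: H2AC17 and H2BC17 shared a region, as did H2AC16 and H1-5. H2BC3 led with 25 reads and 6.75. Any POLR3A P4 region was commoner than these at the starts of the ribosomal and histone genes, 79.4% and 78.1% against 31.3% of all coding genes.

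Along the chromosomes the regions were spread very unevenly. Chromosome 20 had 20.5 regions per Mb, chromosome 17 16.5 and chromosome 11 13.7, and the fewest were on X with 1.04, 4 with 1.56 and 13 with 1.70. The long stretch beyond the gene-free centre of chromosome 20 held 26.7 per Mb, against 10.5 before it. Chromosome 6 had 10.1 per Mb before its centre and 0.244 after it, and chromosome 9 had 0.325 before and 8.88 after.

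Other regions followed the same map. Across 23 chromosomes the density correlated with that of the other POLR3A P4 regions (Pearson r 0.980, Spearman rho 0.957) and of PR P4 regions (0.990 and 0.970), and less with that of coding genes (0.571 and 0.778), as a description of points that share libraries and depth. The parts poor in these regions were poor in PR P4 regions too, with 8.71 per Mb after the centre of chromosome 6 against 53.8 before it. The median local background of the regions was 3.46 reads, the floor, after the centre of chromosome 6 and before that of chromosome 9, and 5.41 after that of chromosome 20 and 8.21 after that of chromosome 3. Dense stretches also stood at the floor, such as both sides of chromosome 19 with 13.6 and 11.3 per Mb, and across chromosomes density and background correlated less closely (r 0.385, rho 0.530). Copy number was not measured here, and its part in this map was not tested. The ratio to the mirror set also varied, from 2.78 on chromosome 20 to 1.19 on X.

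**Figure D5:**
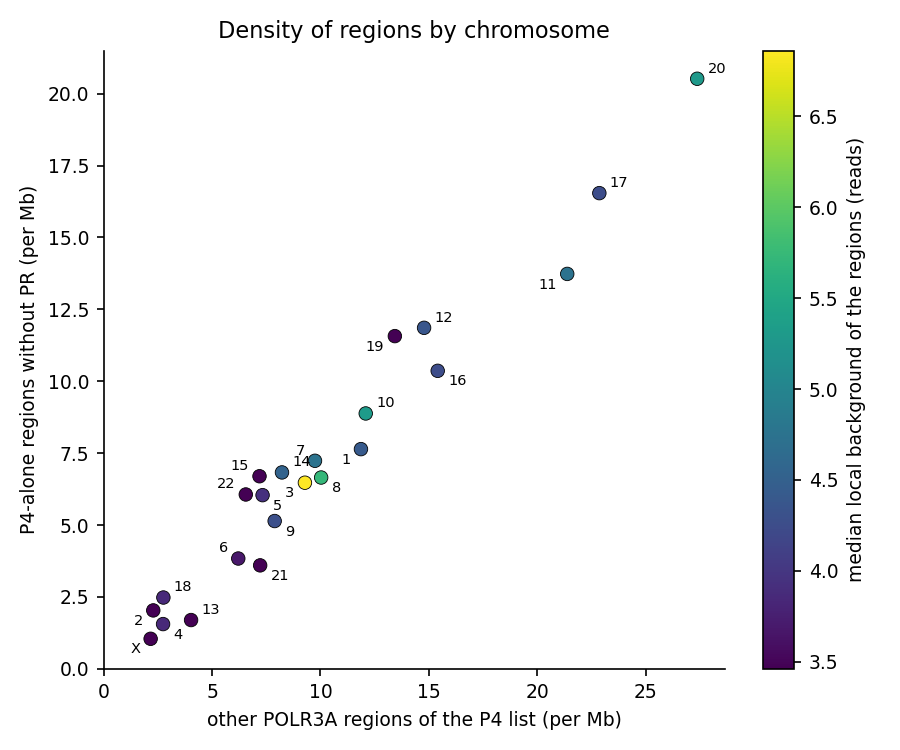
Regions under P4 alone without PR per Mb (vertical axis) against the other POLR3A P4 regions per Mb (horizontal axis), 1 point a chromosome, coloured by the median local background in reads. The points lie along a line from X, with 1.04 of the described regions per Mb, to chromosome 20, with 20.5.

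The regions often came in runs. Another region of the set lay within 10 kb of 42.5% of them, against 55.2% for regions under P4 alone with PR, 56.5% for those in both treatments with PR, 17.0% for those in both without PR and 26.5% in the mirror set. The share moved with the number of regions: with the P4 list cut to the vehicle list's length it was 25.8% of 9581 regions, no longer above the mirror set, and at a −log10 q of at least 3 and at least 5 it was 24.1% and 8.40%. Of 19821 protein-coding genes 5585 (28.2%) held a summit, 394 held 5 or more and 55 held 10 or more. The most were in KCNMA1, a potassium channel, with 39 of its 120 POLR3A P4 regions, GSE1 with 34 of 203, SHANK2, a scaffold of synapses, with 24 of 47, GRIK4, a glutamate receptor subunit, with 22 of 74, and ANKRD11, a chromatin regulator, with 19 of 74. ARSG, a lysosomal sulfatase, tied at 19, out of 33. The widest region, 1086 bp at chr19:48512371-48513456 in LMTK3, had 18 reads and a −log10 q of 4.95, followed by 1075 bp at 94128 bp from IRF8, 1056 bp in GSE1, 991 bp beside ZNF487 and 947 bp beside GON4L.

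The strongest regions lay mostly where no gene is annotated. Of the 45 with a −log10 q of 10 or more, 29 (64.4%) lay in gene-free intervals of over 1 Mb, which include the centromeres, as did 8 of the 10 strongest. At that strength the share was 66.1% (183 of 277) for regions under P4 alone with PR, 41.1% (820 of 1993) for those in both treatments with PR, 2.55% for those in both without PR and 20.9% (14 of 67) in the mirror set, so it was not particular to the set. In all, 683 regions (3.43%) lay in 19 of 25 such intervals, and 148 of them in 1 of those, chr11:50420632-54591479. Their local background was higher, with a median of 7.29 reads against 4.43 elsewhere, as were their reads, 25 against 17, and their −log10 q, 3.90 against 2.79. The share of all POLR3A P4 regions in these intervals was 7.22%, above that of the set.

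The 3 strongest, all outside genes, were chr7:58453959-58454195 with 38 reads over 3.50 and a −log10 q of 22.6, chr1:123335133-123335330 with 76 reads over 18.6 and 19.4, and chr11:53732304-53732517 with 64 reads over 15.9 and 15.8. Their deposited fold enrichments, which add a read to both the summit and the background, were 8.67, 3.93 and 3.85. The strongest in a gene was chr1:204471147-204471660 in PIK3C2B, a lipid kinase, with 34 reads and 15.5, 23354 bp downstream of the start site. Between genes but outside such intervals, chr9:123293478-123293702, 25012 bp upstream of STRBP, had 32 reads and 14.4. The rest of the 10 strongest, all in gene-free intervals, were chr10:40770666-40770872 with a −log10 q of 14.7, chr8:45260476-45260687 with 14.7, chr20:26533547-26533769 with 14.4, chr7:60715377-60715604 with 14.3 and chr11:52302824-52303043 with 13.7. Repeated sequence fills the intervals around the centromeres, and how reads with several matches were placed is not given in the sources used here.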

How the data were processed

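ChIP-seq of T47D cells gave 4 lists, 1 per antibody and treatment. Per the submitters' processing notes, cutadapt, Bowtie2 and MACS2 were used with hg38; versions, control and pooling of replicates are not given in the sources used here. Each deposited list has the narrowPeak layout, which holds a score, a fold enrichment and −log10 p and −log10 q-values. The fold enrichment matched a ratio of summit reads to the local background, with a read added to both. All are the authors' deposited values, used to describe or rank regions within a list. The deposited score was used for nothing.

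Overlap was 1 bp or more and was checked with bedtools 2.31.1, which found the same 19930 regions. Whole reads were solved from fold and p-value, a step added after the lists had been seen and tested on simulated data; they were solved for all members and for 99.4% to 99.6% of each list. Genes were RefSeq's on GRCh38.p14 (58419 of 59098 rows kept, since the rest lay on alternate sequences). The table gives no strand, so gene ends were the main measure, and start sites came from the RefSeq promoter table, which covers 15812 of 19821 coding genes. Summit sequence was planned over 300 bases; a genome sequence was not used here, so promoter windows holding a summit stood in. Motif searches used 7 motifs.

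Members and gene lists were chosen with earlier results of these data known. The text names the 10 strongest regions, Pol III genes with a region (up to 20), the 10 strongest near coding gene ends, the 5 genes with most regions, list genes strongest first, the 5 widest, the 3 nearest on each side of the rule, the 3 strongest outside genes and the 3 chromosomes with most and fewest per Mb. The mirror set, gene-free intervals, printed promoters and reads were chosen after seeing the data. Shares carry 95% Wilson intervals, differences Newcombe intervals and medians order-statistic intervals. The alternatives were stricter q-values, an equal list length, other overlap rules and other distances. Computation used Python 3.11.15, numpy 2.4.6, pandas 2.3.3, scipy 1.17.1 and matplotlib 3.10.9.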

Additional observations from a re-analysis of the deposited data

Results flagged for a closer look

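Regions on unplaced or unlocalised sequences were in none of the comparisons above. The POLR3A P4 list held 716 of them, and 88 (12.3%) overlapped no region of the other 3 lists, with a median −log10 q of 3.19. They drew attention as signal in rows outside the main measurement.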

How the results depend on the processing

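No paired analysis was possible because the replicates of a group share 1 list; for the same reason no replicate could be left out. The planned window of 200 bp around summits was not run, since a genome sequence was not used here. The share in runs was above that of the mirror set (26.5%) with the full P4 list. At equal list length it was no longer above it, and its interval, 24.9 to 26.7, covered 26.5%. The stricter q-values were set on the P4 list only, and the mirror set kept all its 10114 regions. The shares in runs at those q-values therefore cannot be compared with 26.5%. At a −log10 q of at least 3, at least 5, and with the P4 list cut to the vehicle list's length, the set held 8961, 1357 and 9581 regions, with a median −log10 q of 3.75, 5.83 and 3.72; the share within 1 kb of another list was 43.3%, 46.9% and 43.1%, that near coding gene ends 9.95%, 10.1% and 9.88%, and that within 10 kb of another region of the set 24.1%, 8.40% and 25.8%. The share in coding genes was 52.8% and 46.2% at the first and second of these, and 6 tRNA genes and a promoter GC of 67.2% remained at the second. With other lists within 500 bp counted as overlapping, the values were a median of 2.76, 19.8% within 1 kb, 6.54% near gene ends and 31.9% in runs; with the other lists held to a −log10 q of 3 they were 2.85, 34.9%, 10.7% and 49.2%. Gaps from summit to summit put 32.3% within 1 kb. Gene ends within 5 kb gave 29.1% and start sites 6.65%, and runs within 5 kb and 50 kb gave 26.6% and 80.1%. Of the alternatives chosen after seeing the data, the scaled reads gave a median of 2.94 and 40.3% in runs, and leaving out gene-free intervals gave 2.79 and 55.4% in coding genes. The depth of single libraries is unknown, and 1 read more or less moves a region of median strength by about the gap between neighbouring values of q.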

Other observations

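Small RNA genes that Pol II transcribes, mostly within host genes, held a few of the regions. Of 1190 snoRNA genes 10 had one within 100 bp (0.840%, Wilson interval 0.457 to 1.54), and 47 had any POLR3A P4 region. SNORA9, which guides RNA modification, had 24 reads and a −log10 q of 6.57, and SNORD80 had 20 reads and 4.70. Of 1911 miRNA genes 13 had one (0.680%) and 84 had any POLR3A P4 region. Among the 13, MIR151B and MIR342 shared a region, as did MIR3960 and MIR2861. The 13 were led by MIR330 with 17 reads and 4.31. MIRLET7A3, of the let-7 family, had 16 reads and 3.21, with the summit 4.5 bp from the gene's midpoint. These genes were chosen after their values were seen.

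One further promoter with a summit belonged to QTRT1, the enzyme that places queuine in tRNA. The summit lay 41 bp downstream of the start site, with 20 reads over 3.46 and a −log10 q of 6.34, and the window held a match to GTTCNANNC. It too was chosen after its value was seen.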
